A study of Mus musculus with 5 samples.

Results

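Chromosome 3 carries 2275 of the 30398 regions in the deposited list of RAP1 peaks (7.48%), next to 2272 on chromosome 1. By number of peaks it takes place 1 of 20 chromosomes in the full list, place 2 when peaks within 1 kb are merged or peaks of 29 to 31 bp are left out, and place 3 among peaks without negative reads. Its members were selected by chromosome name, and the chromosome itself was proposed from its measured peak density, so that density and the bins singled out below are given as descriptions without a test. RAP1 belongs to shelterin, the protein complex that covers telomeres, and reaches the telomeric repeat through its partner TRF2. It also occupies sites inside chromosomes, where it has been linked to gene regulation. Mouse chromosomes are telocentric: the centromere lies at the low-coordinate (proximal) end and the long arm runs to the distal telomere.

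The series compared chromatin immunoprecipitates of RAP1 from 2 wild-type lines of mouse embryonic fibroblasts with those from 2 lines in which Rap1 was deleted, and it includes 1 input library made without antibody. The immunoprecipitated lines are on a mixed strain background. All 5 libraries came from cells immortalised with the SV40 large T antigen, which disables p53 and the retinoblastoma protein, and were grown in medium with fetal calf serum and puromycin. The labels give neither embryo age nor how many embryos lie behind each line. The list pools the libraries into a positive read set, read here as wild type, and a negative read set, read here as Rap1-deleted, so no value has a spread between replicates and no test between conditions was run. The labels do not say whether the input is part of the negative set.

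The values behind the description of a gene-poor but peak-rich chromosome, which chose it, are these. With 983 protein-coding genes in RefSeq (GRCm38 assembly) over the 156.5 Mb between its first and last listed peak (mm9 positions), chromosome 3 has 6.28 genes per Mb, place 16 of 20 chromosomes from the top. It has 14.5 peaks per Mb, place 5, after chromosomes 11 (18.4), 19 (17.5), 15 (15.9) and 10 (15.2). That makes 2.31 peaks per protein-coding gene, the highest value of the 20 chromosomes, against an autosome median of 1.46. Chromosome 1, of nearly the same gene density (6.22 per Mb), has 11.7 peaks per Mb. Chromosome 3 came first in peaks per gene also among the better-ranked 50% of the list, among peaks without control reads and without the shortest peaks. Densities were not tested against each other, since peaks are unevenly spread along each chromosome: the variance of 1 Mb bin counts is 5.68 times their mean on chromosome 3, 4.72 times on chromosome 10 and 6.54 times on chromosome 17, whose density (14.3) is close by.

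**Figure D1:**
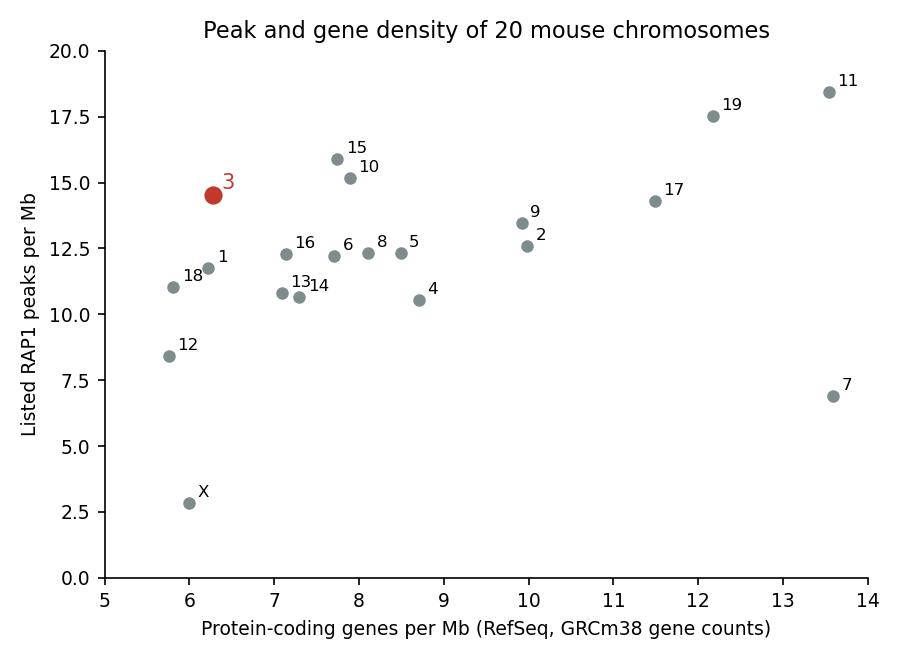
Listed RAP1 peaks per Mb (vertical axis) against protein-coding genes per Mb (horizontal axis), one point for each of 20 chromosomes, with chromosome 3 in red. Chromosome 3 sits at 6.28 genes and 14.5 peaks per Mb, above every other chromosome with fewer than 7 genes per Mb.

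The single peaks of chromosome 3 resembled those of the other chromosomes in size and shape, with fewer read-rich ones. Their median length was 57 bp (interquartile range 39 to 78 bp) against 56 bp elsewhere, and their median was 28 positive reads over the peak (24 to 34) in both. In 2118 peaks (93.1%) reverse reads were highest downstream of forward reads, against 93.0% elsewhere. The 2 ends of a bound fragment give this order, but here it is largely tied to the peak boundaries. In 1637 of the 1638 peaks of 32 bp to under 120 bp the distance between the 2 maxima equals the peak length. The order therefore adds no measure of its own there. Of the 242 peaks of 120 bp or more, 89 have it. A false discovery rate at or under 0.01 in the authors' deposited list stands beside 1270 peaks (55.8%, against 55.9% of all listed peaks). Read-rich peaks were fewer than elsewhere: 50 or more positive reads were counted in 74 peaks (3.25%, exact Clopper-Pearson 95% interval 2.56 to 4.07; 4.23% in the whole list), place 19 of 20 chromosomes. Mean positive reads per peak were 30.2 against 30.3 elsewhere, place 12 of 20. Of the list's 27 peaks with 100 or more positive reads, 1 lies here (3.70%), too few to set against the 7.48% of all peaks. Intervals here and below cover counting error only, since PCR copies are not independent molecules and neighbouring peaks are not replicates.

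Peaks filled the distal part of chromosome 3 more densely than the proximal part. Before the midpoint at 81.3 Mb there were 899 peaks (11.5 per Mb), and beyond it 1376 (17.6 per Mb). In segments of 10 Mb the density was lowest from 10 to 20 Mb and from 40 to 50 Mb (7.90 per Mb in each). It was highest from 100 to 110 Mb (20.7 per Mb) and from 80 to 90 Mb (19.6 per Mb), and still 19.2 per Mb from 140 to 150 Mb. The rise was not smooth, because the segment from 30 to 40 Mb had 15.4 per Mb and that from 110 to 120 Mb 12.5 per Mb.

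At 1 Mb resolution the chromosome alternates between crowded and nearly empty stretches. The 157 bins hold a median of 12 peaks (interquartile range 7 to 20, full range 1 to 57). The 44 fullest bins, 28.0% of all, hold 50% of the peaks. Neighbouring bins were alike to a degree, with a Pearson r of 0.39 over 156 neighbouring pairs, a description of bins that share the same read sets. The longest run of bins above the median reaches from 83 to 91 Mb, with 190 peaks in 8 bins and 16 to 42 in each. The run from 10 to 19 Mb, with 56 peaks in 9 bins and 1 to 11 in each, shares the place of longest below the median. The run from 42 to 51 Mb is equally long, with 3 to 9 peaks in each bin.

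The 5 fullest bins all lie from 79 Mb on. After the bin from 95 to 96 Mb with 57 peaks they are 88 to 89 Mb with 42, 107 to 108 Mb with 34, 121 to 122 Mb with 33 and 79 to 80 Mb with 32. Of the 12 bins with 30 or more peaks, 10 begin beyond the midpoint. Chromosome 3 supplies 12 of the 108 such bins in the list (11.1%), and 6.08% of all 1 Mb bins. The emptiest bin, from 16 to 17 Mb, has 1 peak. Those from 77 to 78 Mb and from 91 to 92 Mb have 2 each, and those beginning at 22, 44 and 98 Mb have 3 each. Of the 20 bins with 5 or fewer peaks, 15 begin before the midpoint.

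**Figure D2:**
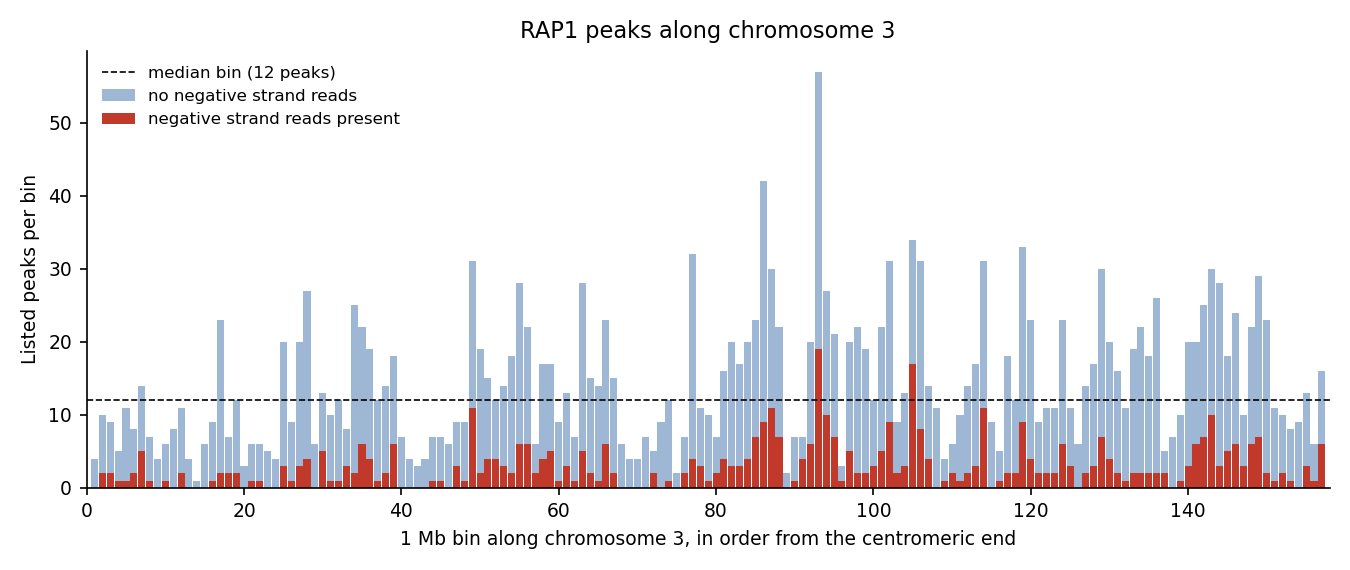
Listed peaks per 1 Mb bin (vertical axis) in each of the 157 bins of chromosome 3, in order from the centromeric end (horizontal axis); red marks the peaks with reads of the negative set in their strand windows, blue those without, and the dashed line the median bin of 12 peaks. Bin 93, from 95 to 96 Mb, holds 57 peaks, 19 of them red.

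The 3 longest stretches without a peak, named after their values were seen, run from 44134309 to 45209261 (1075 kb), from 90884198 to 91893701 (1010 kb) and from 63776626 to 64635052 (858 kb). The first lies among sparse bins, whereas the gap near 91 Mb begins where the longest crowded run ends. Over the whole chromosome the median distance to the next peak was 35.2 kb (interquartile range 12.7 to 83.8 kb), against 39.0 kb on the other chromosomes. Of 2274 neighbouring pairs, 470 (20.7%, 19.01 to 22.4) lie under 10 kb apart, against 20.2% elsewhere. Only 67 pairs (2.95%, 2.29 to 3.73) are under 1 kb apart, against 3.45% elsewhere. Of the 1566 bins of 100 kb, 522 hold no peak.

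The bin from 95000000 to 96000000 holds 57 peaks, 4.75 times the median bin of the chromosome and 2.51% of its peaks. It is the third fullest of 2582 bins of 1 Mb in the whole list, after chromosome 11 from 3 to 4 Mb with 108 and chromosome 19 from 5 to 6 Mb with 66. Its place is 5 among the better-ranked 50% of peaks, 4 at a false discovery rate at or under 0.01 and 2 among peaks without negative reads. A window moved 500 kb down holds 41 peaks and one moved 500 kb up 49, while the fullest 1 Mb window that starts at a listed peak, from 94895997 to 95895996, holds 61. Just outside the bin lie a peak from 94968626 to 94968656 with 21 positive reads and one from 96023878 to 96023938 with 27, both without negative reads. Within the bin the first peak starts at 95026272 and the last ends at 95937184. The middle is fullest, with 10 peaks from 95500000 to 95600000 and 10 from 95600000 to 95700000, more than in any other 100 kb bin of the chromosome. The last 100 kb of the bin holds 1 peak.

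The peaks of this bin are ordinary in height. Their median is 29 positive reads (full range 20 to 92) and their median length 52 bp. Very short peaks of 29 to 31 bp number 16 (28.1%, 17.0 to 41.5), against 17.4% on the chromosome and 17.8% in the list. None is among the best-ranked of the chromosome, since the best rank in the bin is 1711. That peak, from 95034461 to 95034489, has 60 positive reads and 6 negative reads in its strand windows, a ratio of 3.01 after scaling (exact conditional binomial 95% interval 1.31 to 8.53). Strand windows here are the deposited forward and reverse read numbers of a peak. The file headers do not define how far they reach, and in 313 peaks of the chromosome (13.8%) they hold fewer positive reads than the peak itself. Ratios are positive reads over negative reads multiplied by 3.32, the factor that the deposited fold values contain. The next in rank, from 95885041 to 95885084, has 37 positive reads, but 16 negative strand reads bring its ratio to 0.696 (0.378 to 1.34). The peak from 95042540 to 95042657 has 49 positive and no negative reads in any column, at least 4.92-fold higher against a floor of 3 negative reads per peak. That from 95466092 to 95466180 has 36 positive and 2 negative strand reads (ratio 5.42, 1.40 to 46.5). That from 95100169 to 95100237 has 45 and 6 (2.26, 0.960 to 6.48). Of these 5 peaks, those starting at 95034461 and 95466092 have an interval wholly above 1. The bound of the peak starting at 95042540 divides its positive reads by the fixed floor. It holds no counting error and is not set beside the intervals. The 5 were chosen by rank in the same list, which neither the intervals nor the bound allow for.

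Control reads were common in the bin. Negative strand reads stand beside 19 of its 57 peaks (33.3%, 21.4 to 47.1), against 20.7% on the chromosome and 18.8% in the list. Without the peaks of 29 to 31 bp, which carry control reads more often, the share is 31.7% (18.1 to 48.1). A ratio of 1 or less belongs to 7 peaks (12.3%, 5.08 to 23.7), against 7.52% on the chromosome and 6.58% in the list, which its interval spans. Summed over the bin, 1800 positive strand reads stand against 165 negative ones, which gives 3.29 (2.80 to 3.88), below the 5.21 of the chromosome. The other 38 peaks have no negative read in any column, and counting only such peaks the bin holds 3.8 times the median bin. The most read-rich, a broad peak of 386 bp from 95470346 to 95470731 with 92 positive reads, has 13 negative strand reads, all reverse (ratio 1.83, 1.01 to 3.59). It belongs to a group of 6 peaks from 95466092 to 95482351 with a ratio of 3.81 (2.36 to 6.55). A second group of 5 peaks, from 95622114 to 95636834, has 146 positive strand reads and no negative one, at least 14.7-fold higher with the floor of 3 reads taken over the group.

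**Figure D3:**
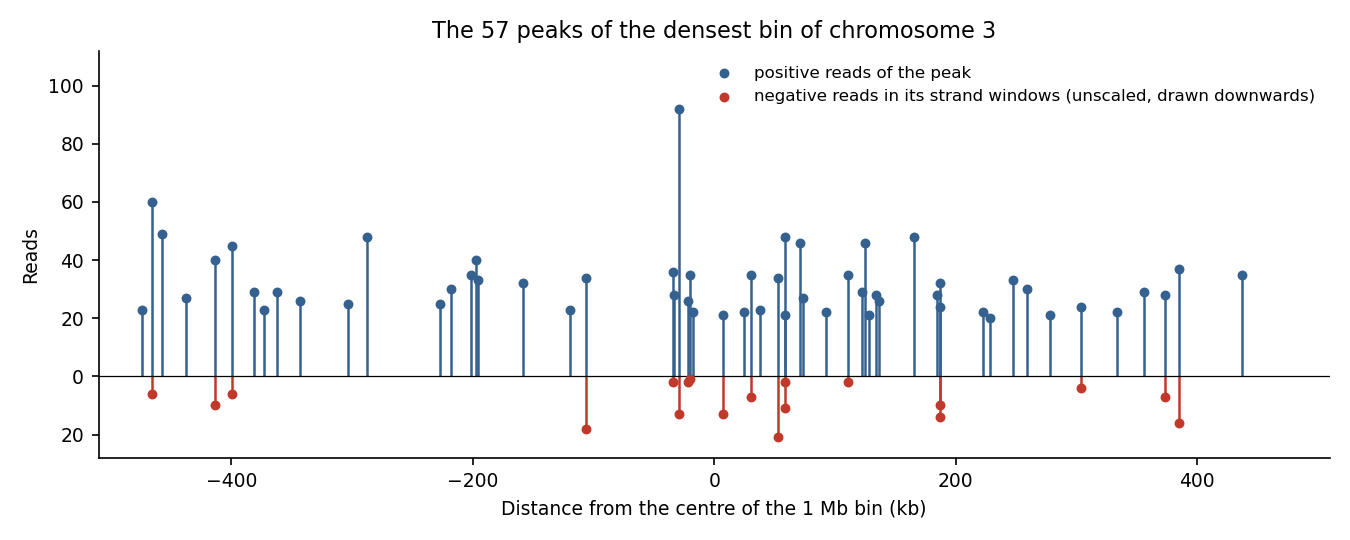
Each of the 57 peaks in the bin from 95 to 96 Mb as a line at its distance from the bin's centre (horizontal axis, kb), with positive reads of the peak drawn upwards in blue and unscaled negative reads in its strand windows drawn downwards in red (vertical axis, reads). Positive reads reach 92 and most peaks without a red line stand between 20 and 50 reads.

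The tallest peak of chromosome 3 stands in a thinly filled region. It lies from 8246273 to 8246509, is 237 bp long and ranks 9 in the whole list. It has 115 positive reads and 1 negative read over the peak, a ratio of 34.6 (6.09 to 1379). In the strand windows 44 forward and 54 reverse positive reads face 2 negative ones, a ratio of 14.8 (3.98 to 124). In the authors' deposited table its log2 fold is 6.48. The strand modes are 6 bp apart in reversed order, as in many broad peaks: only 89 of the chromosome's 242 peaks of 120 bp or more have the reverse mode downstream. Its neighbours are 338 kb before and 294 kb after it, and its 1 Mb bin holds 8 peaks. Both ratios rest on 1 or 2 negative reads, which leaves their upper limits loose. Both lower limits are above 3, but this peak was named for its height. The intervals do not allow for that choice and are no test of enrichment.

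The other 9 best-ranked peaks of the chromosome hold 49 to 82 positive reads, and the control reads divide them. There are 4 without a negative read in any column. The peak from 99742992 to 99743061 has 57 positive reads (at least 5.72-fold higher), that from 88407661 to 88407716 has 53 (at least 5.32-fold), that from 19857063 to 19857144 has 52 (at least 5.22-fold) and that from 30686821 to 30686893 has 49 (at least 4.92-fold). They are 56 to 82 bp long. These bounds set the positive reads over the peak against the floor of 3 negative reads and therefore follow the positive reads alone.

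The remaining 5 have 0 negative reads over the peak but 5 to 26 in the strand windows. The peak ranked 25, from 87722720 to 87722783, has 82 positive and 21 negative strand reads, a ratio of 1.18 (0.721 to 2.0). The peak ranked 140, from 89802619 to 89802648 and 30 bp long, has 33 positive and 26 negative strand reads, a ratio of 0.382 (0.222 to 0.665), more scaled control than positive reads. The other ratios are 2.51 (1.25 to 5.70) from 134953485 to 134953514, 2.71 (1.30 to 6.52) from 96740343 to 96740372 and 3.49 (1.41 to 11.2) from 108703669 to 108703738. Rank in the deposited list therefore did not follow the strand-window ratio among these peaks. Of the 5 peaks with the most positive reads, those not yet described are a 37 bp peak from 148715777 to 148715813 with 82 reads and a ratio of 1.60 (0.803 to 3.52), and a 72 bp peak from 144280241 to 144280312. The latter has 77 reads and no negative read, at least 7.73-fold higher, the largest such bound on the chromosome.

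Neither end of chromosome 3 was enriched at the 2 Mb scale. The proximal 2 Mb, counted from the first listed peak, hold 14 peaks, 0.482 times the density of the chromosome (0.264 to 0.806), place 17 of 20. The proximal 10 Mb stay at 0.537 times (0.426 to 0.667). The distal 2 Mb, counted back from the last listed peak, hold 29 peaks, 0.998 times the density of the chromosome (0.669 to 1.43). This is place 17 of 20, where the autosome median is 1.56. The distal 0.5 Mb hold 16 peaks, 2.20 times the density (1.26 to 3.57), and the distal 5 Mb hold 56, 0.771 times (0.584 to 0.997). These intervals treat peaks as evenly spread and are too narrow for counts as uneven as these.

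The first peaks are modest, and the last ones mix clean peaks with control reads. The first listed peak, from 3054008 to 3054050, has 30 positive reads, and the next, from 3168329 to 3168406, has 28. Both lack negative reads. The last, from 159583691 to 159583753, has 34 positive reads and no negative one, at least 3.41-fold higher. The one before it, from 159549127 to 159549290, has 39 positive reads and 9 negative strand reads (ratio 1.37, 0.657 to 3.21). A pair of very short peaks, named after their values were seen, lies in the last 0.2 Mb: 73 positive reads from 159387642 to 159387670 and 59 from 159387792 to 159387821, with ratios of 2.97 (1.44 to 7.13) and 1.18 (0.633 to 2.37). In the distal 0.5 Mb, 6 of 16 peaks have negative strand reads and the summed ratio is 3.23 (2.44 to 4.36), below the 5.21 of the chromosome. In the proximal 1 Mb none of 4 peaks has one.

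**Figure D4:**
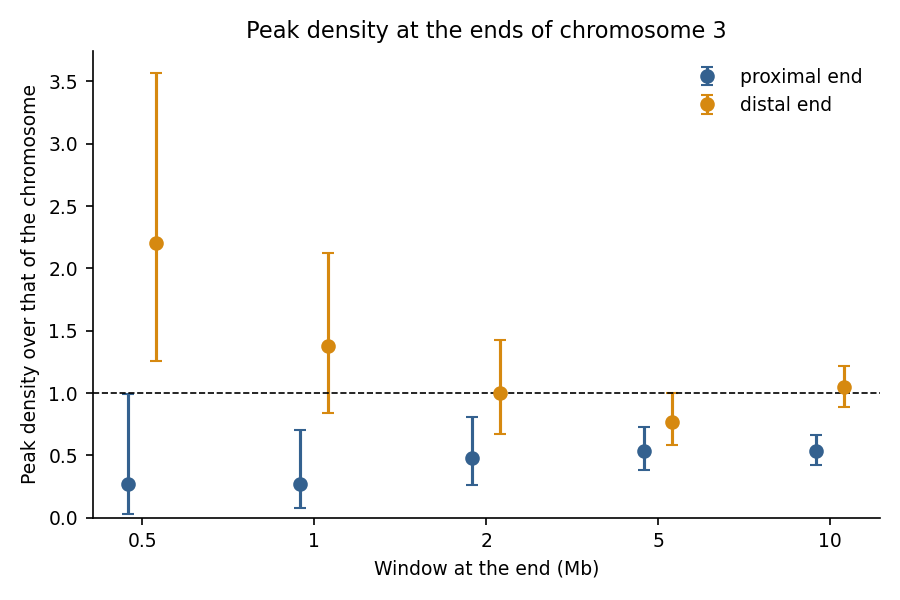
Peak density in windows of 0.5 to 10 Mb at the proximal (blue) and distal (orange) ends of chromosome 3, divided by the density of the whole chromosome (vertical axis); bars are exact 95% intervals of counting error and the dashed line marks 1. The proximal points stay between 0.275 and 0.537, while the distal points go from 2.20 at 0.5 Mb to 0.998 at 2 Mb.

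Control reads at chromosome 3 peaks were somewhat more frequent than over the list as a whole. In the strand windows 470 peaks (20.7%, 19.01 to 22.4) have negative reads, against 18.8% of all listed peaks and 18.6% (18.2 to 19.1) of those on other chromosomes, place 5 of 20. Their sums are 68119 positive and 3935 negative strand reads, so the ratio is 5.21 (5.05 to 5.38), against 5.77 (5.71 to 5.82) on the other chromosomes. Over the whole peak only 6 peaks (0.264%) have a negative read, against 0.256% on the other chromosomes. There are 464 (20.4%) with 0 there and negative reads in the strand windows, against 18.4% elsewhere. For these 464, the window with most negative reads fell within the peak in 141 of 267 forward entries (52.8%, against 51.9% elsewhere). It did so in 123 of 250 reverse entries (49.2%, against 48.6%). A 0 over the peak therefore does not show that the control was empty.

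Where control reads occurred they often matched the positive ones. The 470 peaks have a median of 7 negative strand reads (interquartile range 4 to 11, up to 45) and a median ratio of 1.33, and 306 of them have a ratio under 2. Such peaks on the other chromosomes also have a median of 7 (4 to 11) and a median ratio of 1.33. No count under 2 is given for them. On chromosome 3, 171 peaks (7.52%, 6.47 to 8.68) have a ratio of 1 or less, against 6.58% of the list. Of these, 117 lie beyond the midpoint (68.4%, 60.9 to 75.3), where 60.5% of all peaks of the chromosome lie. The negative reads fell on 1 strand only in 416 of the 470 peaks (88.5%), against 88.7% on the other chromosomes. The remaining 1805 peaks of chromosome 3 (79.3%, against 81.4% on the other chromosomes) have no negative read in any column. Their bounds run from 1.204-fold to 7.73-fold with a median of 2.81-fold. The list admits peaks on these same positive reads, so the bounds restate its entry level.

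The lowest ratios, among the 153 peaks with 10 or more negative strand reads, belong to peaks of 23 to 38 positive reads. The lowest, from 59214850 to 59214878, has 35 positive strand reads against 45 negative ones, all reverse, a ratio of 0.234 (0.146 to 0.373). It is followed by the peaks from 66587665 to 66587697 (0.245, 0.140 to 0.424), from 131364894 to 131364924 (0.257, 0.141 to 0.465), from 97571792 to 97571870 and from 94856965 to 94857053 (each 0.280, 0.1597 to 0.491). In all 5 the scaled negative strand reads exceeded the positive ones, and the whole interval lies under 1. These peaks were picked as the lowest, which the intervals do not allow for. In 3 of the 5 all negative reads fell on 1 strand, and the intervals count them as independent. None of the 5 has a negative read in the whole-peak column.

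Control reads were more frequent where peaks were crowded, in classes of bins set after their counts were seen. In the 20 bins with 5 or fewer peaks, 8 of 75 peaks (10.7%, 4.72 to 19.9) have negative strand reads. The share was 17.5% (15.2 to 19.97) in bins of 6 to 19 peaks, 20.7% (17.8 to 23.7) in bins of 20 to 29 and 30.3% (25.9 to 35.0) in bins of 30 or more, where it was 29.9% (25.1 to 34.9) with the bin from 95 to 96 Mb left out. The summed ratio went from 11.5 (8.81 to 15.3) through 6.55 (6.21 to 6.92) and 5.03 (4.77 to 5.32) to 3.47 (3.26 to 3.69). Mean positive reads per peak moved the same way, from 28.2 through 29.4 and 30.4 to 31.8. Across the 142 bins with 5 or more peaks, which share the same libraries, Spearman's rho between peaks per bin and the share with negative strand reads was 0.27. It was 0.31 between peaks per bin and median positive reads. Local read depth, mappability and copy number were not tested.

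Along the chromosome, control reads were most frequent in the 10 Mb segment that contains the fullest bin. From 90 to 100 Mb, 60 of 186 peaks (32.3%, 25.6 to 39.5) have negative strand reads and the ratio is 2.96 (2.72 to 3.23), the lowest of the 16 segments of 10 Mb. From 10 to 20 Mb, 7 of 79 peaks (8.86%, 3.64 to 17.4) have them and the ratio is 10.6 (8.27 to 13.9), the highest. Among the fullest bins, that from 107 to 108 Mb has negative strand reads at 17 of 34 peaks and a ratio of 2.30 (1.95 to 2.74), whereas that from 88 to 89 Mb has them at 9 of 42 and a ratio of 5.54 (4.38 to 7.10), and that from 79 to 80 Mb at 4 of 32 and a ratio of 6.91 (5.09 to 9.61). The bin from 121 to 122 Mb has them at 9 of 33 and a ratio of 2.90 (2.39 to 3.57). Crowded bins thus differed among themselves in these values, though reads within a bin are not independent. Of the 156 negative strand reads from 107 to 108 Mb, 69 belong to 1 group of 7 peaks from 107531395 to 107547799.

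Peak length also went with control reads. Of the 395 peaks of 29 to 31 bp (17.4% of the chromosome's peaks, against 17.8% of the list), 33.7% (29.02 to 38.6) have negative strand reads and the summed ratio is 2.82 (2.65 to 2.99). In the 1638 peaks of 32 bp to under 120 bp the share is 16.7% (14.95 to 18.6) and the ratio 6.42 (6.16 to 6.70). In the 242 peaks of 120 bp or more (10.6%, against 10.5% of the list) it is 26.0% (20.6 to 32.04) and the ratio 5.29 (4.83 to 5.79). The deposited distance between strand modes equals the peak length in 1637 of the 1638 peaks of the middle class and therefore adds no measure of its own there. Within the middle class alone the share with negative strand reads still went from 12.3% (5.08 to 23.7) in the emptiest bins to 23.1% (18.2 to 28.7) in the fullest.

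**Figure D5:**
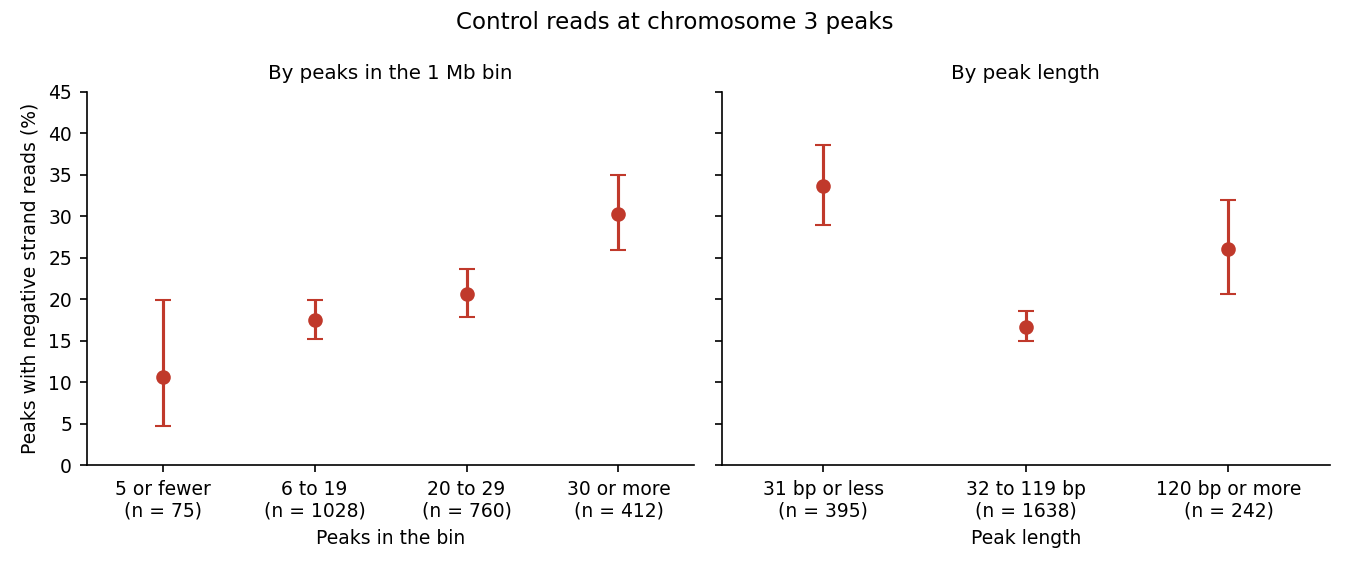
Percent of chromosome 3 peaks with negative strand reads (vertical axis), by the number of peaks in their 1 Mb bin (left) and by peak length (right), with exact 95% intervals of counting error and the number of peaks under each point. The share goes from 10.7% in bins of 5 or fewer peaks to 30.3% in bins of 30 or more, and is lowest, 16.7%, for peaks of intermediate length.

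Most peaks of chromosome 3 stand alone. Joined at gaps of up to 10 kb they form 1805 groups, of which 1452 are single peaks, 267 are pairs and 6 hold 5 or more peaks. The largest have 7 peaks each. One, from 108570158 to 108592186, has 265 positive and 11 negative strand reads, a ratio of 7.25 (3.99 to 14.7). The other, from 107531395 to 107547799, has 209 and 69, a ratio of 0.912 (0.692 to 1.22), with negative reads at 6 of its 7 peaks. A group of 6, from 130411495 to 130440147, has a ratio of 9.08 (4.33 to 22.9), and a group of 5, from 104818174 to 104837007, has 2.53 (1.53 to 4.47). Groups of equal size about 1 Mb apart thus lay at and well above the control level.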

How the data were processed

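The deposited file is 1 peak list for the whole series, called on pooled reads in mm9 positions per the submitters' processing notes. Its columns hold read counts of a positive and a negative set, per the file headers, over the peak and in strand windows, not normalised by the authors. They also hold the coverage signal of the highest window, a false discovery rate (the peak caller's q-value) and log2 fold values, all as deposited. The aligner is not given in the sources used here, nor are the peak caller, filters and library depths.

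Solving the deposited log2 folds for the scale of the negative reads gave 3.32, within 0.001 in 140 of 141 usable entries. Ratios carry exact conditional binomial and shares exact Clopper-Pearson 95% intervals. A count of 0 was bounded with 3 reads. Peaks were binned by start, and densities use the length between the first and last listed peak. Python 3.11.15, scipy 1.17.1 and pandas 2.3.3 were used, and the steps were tested on simulated data.

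Named were the 10 best-ranked peaks, the 5 with the most positive reads, the 5 best-ranked of the dense bin, the first and last 2, the 5 of lowest strand ratio among those with 10 or more negative reads, the 5 largest groups, and the 5 fullest and emptiest bins. The members and lists were chosen with earlier results of these data known. The planned test per library could not be run on pooled columns. Genes and sequences at peaks need mm9, which was not used here.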

Additional observations from a re-analysis of the deposited data

How the results depend on the processing

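Among the better-ranked 50% of peaks the density of chromosome 3 was 7.28 per Mb, its bin from 95 to 96 Mb held 27 peaks, the variance of bin counts over their mean was 3.64 and the strand-window ratio 5.625. At a false discovery rate at or under 0.01 these were 8.11, 30, 3.70 and 5.56. Both subsets remove peaks by construction, and chromosome 3 took place 5 or 6 by density and place 1 by peaks per gene in each of the 5 subsets tried. By number of peaks it fell from place 1 to 2 or 3 in 3 of them, and the bin moved between places 2 and 5 of the list. Without peaks of 29 to 31 bp, 17.9% had negative strand reads and the ratio was 6.22. With negative reads unscaled the ratio was 17.3. The distal ratio was 2.20 in 0.5 Mb against 0.998 in 2 Mb. The ratio of the dense bin to the median bin ran from 3.77 to 4.75, and leaving that bin out, an alternative chosen after seeing the data, gave a variance over mean of 5.10. All other alternatives stayed within 1.5 times the value, or within its counting interval. No paired analysis was possible because the columns pool the libraries, and for the same reason no replicate could be left out. Depth per library is unknown, so a count of 0 negative reads limits each peak only to the floor of 3.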
